A study of Mus musculus with 8 samples.

Results

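Rgs7bp, Nrk, Plxdc2 and Skint3 are 4 of the 19909 genes measured in haematopoietic stem cells (HSCs) of young and old mice, and they were selected on the fall of their normalized counts between young and old HSCs. The selection used these same libraries, so every value of old against young below is a description without a test. The rule of selection does not use the contrast between the 2 fractions of old HSCs, which is tested, although its results were known when the genes were picked. The counts of the old libraries entered the selection, so that test is not independent of it. HSCs are the rare bone marrow cells that renew themselves and give rise to all blood lineages, and in old mice they are more numerous but less able to rebuild balanced blood.

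Bulk RNA was sequenced from purified bone marrow HSCs isolated at steady state, about 10000 cells per library. All 3 groups carried the same genotype, Gfplc3/Gfplc3, which makes the autophagosome protein LC3 as a fusion with GFP, so that the fluorescence of a cell drops when autophagy breaks the fusion down. AThi libraries (n = 3) held the 33% of HSCs with the lowest GFP (GFPlo) from old mice aged over 24 months, and ATlo libraries (n = 3) held the 33% with the highest GFP (GFPhi) from old mice of that age. Young libraries (n = 2) held HSCs of mice aged 8 to 12 weeks that were not fractionated by GFP. Old cells were gated and young cells were not, so in any value set against young the gate cannot be told apart from age. In bulk RNA, fewer cells of a type and less RNA per cell cannot be told apart either.

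Depth was 33960216 to 45830216 reads in AThi libraries, 54512285 to 61341946 in ATlo libraries, and 44021141 and 45590508 in young libraries. All 10 HSC markers listed were present, and their summed normalized counts were 113999 to 139861 in AThi, 84846 to 106768 in ATlo and 116015 to 117666 in young libraries. Some libraries stood apart. Xist, the RNA that silences one X chromosome in females, was at 97743 normalized counts in the young library tagged D11 against 3869 in D12, and at 32.5 to 5810 in the 6 old libraries. The Y-linked gene Ddx3y was at 4.16 in D11 and 1918 in D12, and at 2404 to 3219 in the old libraries, so D11 alone had female levels. Summed B cell markers ranged widely within each group, at 860 to 23853 in AThi, 636 to 10098 in ATlo, and 697 to 10753 in young libraries. The highest library of each group was the one tagged O12 or D12. Ighm was at 20937 in AThi O12, 7314 in ATlo O12 and 8395 in D12, against 25.3 to 63.5 elsewhere. Hbb-bs (735, 2032 and 2344) and, with D11 set apart, Xist (5810, 2747 and 3869) were also highest there, and the reason was not tested. Endothelial markers (4 of 5 in the table) summed to 5679 to 7020 in AThi, 4521 to 5433 in ATlo, and 7137 to 12960 in young libraries. Other marker sums separated old from young libraries. Multipotent progenitor markers (4 of 4 in the table) summed to 8733 to 11397 in AThi, 10759 to 13058 in ATlo, and 14286 to 14947 in young libraries. By this sum both old fractions lay below young, and Flt3 alone among its genes was lower in every old library than in both young ones. Megakaryocyte and platelet markers (5 of 5) summed to 4001 to 4978 in AThi, 5511 to 7898 in ATlo, and 2366 to 2608 in young. Granulocyte markers (4 of 6) summed to 5287 to 6545, 4022 to 6400, and 2576 to 2685. Both sums lay above young in old cells, but not every gene followed its sum. Ppbp averaged 19.9 in AThi, 44.5 in ATlo and 82.5 in young. Prtn3, the largest granulocyte value, averaged 4683, 3673 and 1862, while Mpo, S100a8 and S100a9 overlapped between old and young libraries. Of the sums in this paragraph, those of HSC, megakaryocyte and endothelial markers also separated AThi from ATlo. The part of these marker levels in the results below was not tested. Members are given with and without each young library for this reason.

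The 4 genes act in unrelated pathways. Rgs7bp encodes a palmitoylated anchor that holds R7-type RGS proteins at the plasma membrane, where these enzymes speed GTP hydrolysis by G alpha i/o subunits and so end signals from G protein-coupled receptors; it is best known in neurons. Nrk encodes an X-linked serine/threonine kinase of the germinal centre kinase family, relatives of which feed the JNK cascade, and in mice it is known from the placenta. Plxdc2 encodes a transmembrane protein with a plexin-like extracellular domain that has been described as a receptor for the secreted factor PEDF, the product of Serpinf1. Skint3 belongs to a mouse family of butyrophilin-like immunoglobulin proteins, of which Skint1 is needed in the thymus for a class of epidermal gamma delta T cells.

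Rgs7bp was close to silent in old HSCs and well expressed in young ones. It was at 27.8, 33.0 and 29.3 normalized counts in AThi libraries O10, O11 and O12, at 58.1, 7.94 and 35.8 in ATlo libraries O10, O11 and O12, and at 1621 and 1256 in young libraries D11 and D12. The lowest young library stood 21.6-fold above the highest old one. Behind these values lay 19, 30 and 28 reads in AThi, 74, 10 and 46 in ATlo, and 1560 and 1189 in young libraries, so counting error is wide in old cells. Group means were 30.0 ± 2.69 in AThi, 33.9 ± 25.2 in ATlo (SD, n = 3 each) and 1438 ± 258 in young (SD, n = 2), which puts AThi at 2.09% and ATlo at 2.36% of the young mean. The log2 ratio of means was -5.58 for AThi over young and -5.40 for ATlo over young. Without young D11 these were -5.39 and -5.21, and without young D12 they were -5.75 and -5.58. The ATlo ratio was -6.04 without ATlo O10, the old library with the most Rgs7bp, and -4.94 without ATlo O11, the one with the least. Rgs7bp ranked 1 by size of fall among the 344 genes called lower in AThi against young with a mean of at least 100 normalized counts, and again 1 among the 298 called lower in ATlo against young.

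Nrk was lower in every old library than in either young one, yet remained measurable in all. It was at 291, 402 and 462 normalized counts in AThi O10, O11 and O12, at 540, 507 and 337 in ATlo O10, O11 and O12, and at 1974 and 2176 in young D11 and D12. The lowest young library was 3.66-fold above the highest old one, and the 2 old fractions overlapped. Means were 385 ± 86.8 in AThi, 461 ± 109 in ATlo (SD, n = 3 each) and 2075 ± 143 in young (SD, n = 2), or 18.6% and 22.2% of the young mean in AThi and ATlo. Log2 ratios were -2.43 for AThi over young and -2.17 for ATlo over young. Nrk is the 1 member on the X chromosome, and the young library with female levels of Xist did not have more of it than D12. Without D11 the log2 ratios were -2.50 for AThi and -2.24 for ATlo, and without D12 they were -2.36 and -2.10.

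Skint3 was low in old HSCs and moderate in young ones. It was at 35.1, 11.01 and 58.6 normalized counts in AThi O10, O11 and O12, at 80.1, 69.1 and 49.8 in ATlo O10, O11 and O12, and at 333 and 370 in young D11 and D12. Both young libraries lay above all 6 old ones, by 4.16-fold at the narrowest gap, and the old fractions overlapped. The AThi values rested on 24, 10 and 56 reads and the ATlo values on 102, 87 and 64 reads, against 321 and 350 in young libraries. Means were 34.9 ± 23.8 in AThi, 66.3 ± 15.4 in ATlo (SD, n = 3 each) and 352 ± 25.6 in young (SD, n = 2), or 9.93% and 18.9% of young in AThi and ATlo. Log2 ratios were -3.33 for AThi over young and -2.41 for ATlo over young. Leaving out AThi O12 took the AThi ratio to -3.93, and leaving out AThi O11 took it to -2.91, the extremes when 1 library was left out. Without young D11 the ratios were -3.40 for AThi and -2.48 for ATlo, and without young D12 they were -3.26 and -2.33.

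Plxdc2 was the most abundant of the 4 and the one that separated all 3 groups. It was at 2705, 1949 and 2294 normalized counts in AThi O10, O11 and O12, at 1000.2, 530 and 872 in ATlo O10, O11 and O12, and at 5708 and 7709 in young D11 and D12. No library of one group overlapped another group: the lowest AThi library was 1.95-fold above the highest ATlo library, and the lowest young library was 2.11-fold above the highest AThi library. Means were 2316 ± 379 in AThi, 801 ± 243 in ATlo (SD, n = 3 each) and 6709 ± 1415 in young (SD, n = 2). AThi thus held 34.5% of the young mean and ATlo 11.9%. Log2 ratios were -1.53 for AThi over young and -3.07 for ATlo over young. Without young D11 they were -1.73 and -3.27, and without young D12 they were -1.30 and -2.83.

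**Figure D1:**
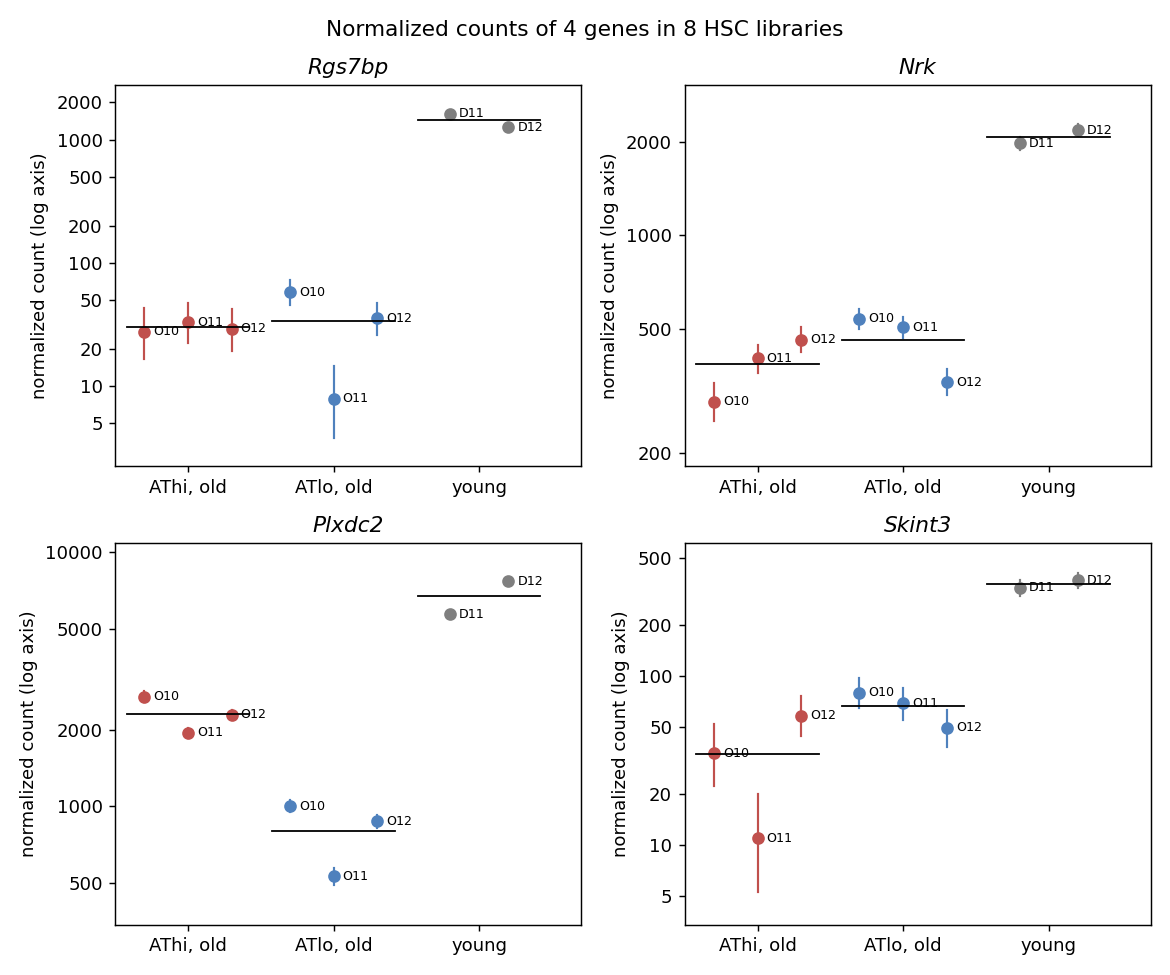
Normalized counts (log axis) of the 4 genes in every library, by group; bars are 95% Poisson intervals of the reads, covering counting error only, and black lines are group means. In each panel both young libraries lie above all 6 old ones, and for Plxdc2 the AThi libraries (1949 to 2705) also lie above the ATlo libraries (530 to 1000.2).

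All 4 genes were among the calls lower in old than in young in the authors' deposited table, which follows from how they were chosen; in AThi against young 5.04% of genes tested were called and 1.91% were called lower, and in ATlo against young 4.34% were called and 1.98% were called lower. The Skint3 call in ATlo against young was the least steady of these, held in 7 of 12 refits and absent in edgeR. Both contrasts share the young libraries. Complete separation of old below young was seen for 4.92% of the 13611 genes with a mean of at least 100 normalized counts, and nothing is read from the 4 members having it. The members differed in which fraction lay lower. By fold change AThi stood 47.8-fold (Rgs7bp), 10.1-fold (Skint3), 5.38-fold (Nrk) and 2.90-fold (Plxdc2) below young in the authors' deposited table. By fold change ATlo stood 42.3-fold (Rgs7bp), 8.38-fold (Plxdc2), 5.30-fold (Skint3) and 4.499-fold (Nrk) below young in the authors' deposited table. Plxdc2 was therefore last of the 4 in AThi and next after Rgs7bp in ATlo. By size of fall among the called genes with a mean of at least 100, Skint3, Nrk and Plxdc2 ranked 4, 11 and 48 in AThi against young and 28, 42 and 9 in ATlo against young.

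AThi against ATlo is the contrast that the rule of selection did not use. The same old counts did enter the selection against young, and the results of this contrast were known, so its p-values are not independent of the choice. Of the 4 genes 1 passed, where 7.9% of all genes tested did, 3.47% higher and 4.43% lower in AThi. Plxdc2 was 2.89-fold higher in AThi than in ATlo in the authors' deposited table (95% interval 2.09 to 4.002; log2 fold change 1.53, SE 0.24; DESeq2 Wald test with Benjamini-Hochberg adjustment, adjusted p 2.7e-08). In the quasi-likelihood test of edgeR on the recovered reads, which called 1.41% of genes, 0.301% higher and 1.11% lower, its adjusted p was 0.0212. Plxdc2 was called in 15 of 15 refits with other tools, normalizations, a replicate block or 1 library left out, with log2 fold changes of 1.31 to 1.72. Complete separation of AThi above ATlo was seen for 10.8% of the 13611 genes. Within each pair of old fractions that share a tag, the ratio of AThi to ATlo was 2.704 (exact 95% counting interval 2.52 to 2.91) for O10, 3.68 (3.36 to 4.03) for O11 and 2.63 (2.45 to 2.83) for O12, higher in AThi in 3 of 3 pairs. Among the marker sums, those of HSC and endothelial markers were also higher in every AThi library than in any ATlo library. The endothelial sum had the order of Plxdc2 over all 3 groups, but its genes differed. Emcn (803 in AThi, 576 in ATlo, 1863 in young) and Tek (2860, 2659, 6551) averaged highest in young. Young Tek was at 2982 in D11 and 10119 in D12. Kdr (557, 183, 201) and Pecam1 (2094, 1628, 1434) averaged highest in AThi. The sums of megakaryocyte markers and of the 2 of 5 mast cell and basophil markers in the table were lower in every AThi library. The mast cell and basophil sum was 49.8 to 210 in AThi and 229 to 613 in ATlo. Here too the genes differed. Pf4, Itga2b and Cpa3 were lower in every AThi library than in any ATlo library. Gp1ba averaged higher in AThi (1304) than in ATlo (1162), and Gp9, Ppbp and Fcer1a overlapped. The part of these marker levels in the Plxdc2 difference was not tested.

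The other 3 genes did not pass in AThi against ATlo in the authors' deposited table, and their intervals leave room for differences in either direction. Rgs7bp had a fold of 0.886 (95% interval 0.430 to 1.83; DESeq2 adjusted p 0.920) in the authors' deposited table. Nrk had a fold of 0.837 (95% interval 0.589 to 1.19; DESeq2 adjusted p 0.668) in the authors' deposited table. For Skint3 the fold in the authors' deposited table was 0.527 (95% interval 0.236 to 1.18; DESeq2 adjusted p 0.412). None of these 3 was called in any of the 15 refits. The pairs went different ways. For Rgs7bp the ratio of AThi to ATlo was 0.478, 4.16 and 0.819 in pairs O10, O11 and O12, and the O11 value rests on 30 and 10 reads. For Nrk it was 0.540, 0.793 and 1.37, and for Skint3 0.438, 0.159 and 1.18. Without the ATlo library O10 the fitted log2 fold change of Rgs7bp was 0.46 (DESeq2 adjusted p 0.743), against -0.17 with all libraries.

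**Figure D2:**
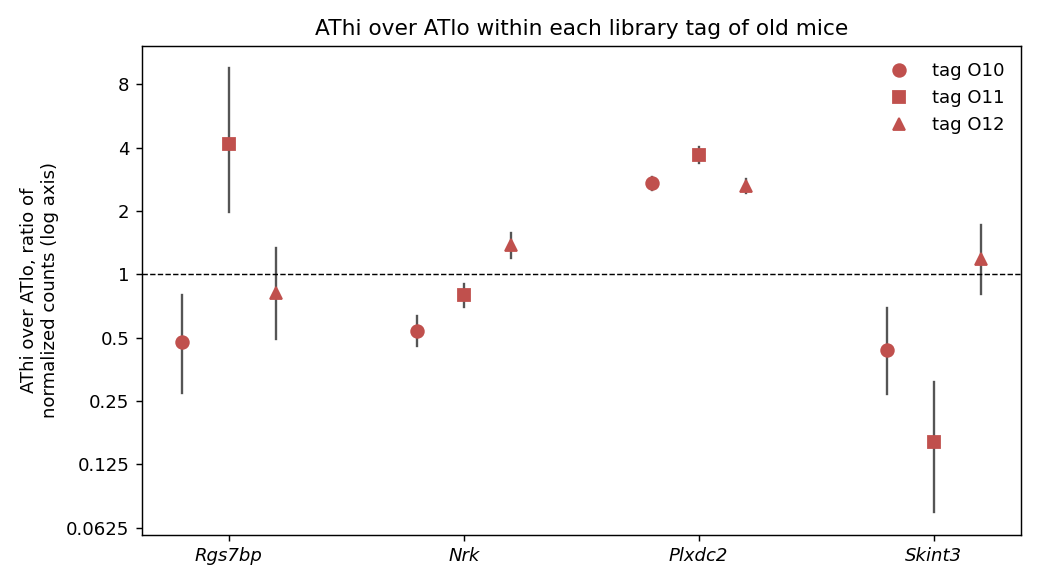
Ratio of normalized counts, AThi over ATlo (log axis), in each pair of old fractions sharing a tag, for the 4 genes; bars are exact 95% binomial intervals that cover counting error only. The Plxdc2 ratios are 2.63 to 3.68 in all 3 pairs, while the ratios of the other genes lie on both sides of 1.

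The young libraries, which come from animals whose sex-linked genes differ, were closer to each other for Nrk and Skint3 than for most genes, and farther apart for Rgs7bp and Plxdc2 than for most. D11 over D12 was 1.29 (exact 95% counting interval 1.196 to 1.39) for Rgs7bp, 0.907 (0.852 to 0.966) for Nrk, 0.740 (0.715 to 0.767) for Plxdc2 and 0.902 (0.773 to 1.05) for Skint3. Counting error alone does not cover the first 3 of these differences. Among the 13611 genes with a mean of at least 100, 39.4%, 72.1%, 32.8% and 70.7% were at least as far apart as Rgs7bp, Nrk, Plxdc2 and Skint3, and 8.11% were 2-fold or more apart.

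Levels of different genes can be set side by side only per length. In reads per kilobase of exon scaled to the reads outside ribosomal RNA (RPKM), Plxdc2 was highest in every group, at 10.7 ± 1.57 in AThi, 3.68 ± 1.14 in ATlo (SD, n = 3 each) and 31.3 ± 6.67 in young (SD, n = 2). Nrk came next, at 1.34 ± 0.313 in AThi, 1.60 ± 0.376 in ATlo and 7.30 ± 0.522 in young. Rgs7bp was at 0.136 ± 0.0143 in AThi, 0.154 ± 0.114 in ATlo and 6.58 ± 1.16 in young. Skint3 was at 0.290 ± 0.198 in AThi, 0.551 ± 0.128 in ATlo and 2.96 ± 0.223 in young. In young libraries Rgs7bp (5.76 to 7.40) and Nrk (6.93 to 7.67) overlapped, with Skint3 below both, whereas in ATlo Rgs7bp (0.0356 to 0.263) lay below Skint3 (0.414 to 0.669). In AThi libraries Skint3 (0.0931 to 0.488) and Rgs7bp (0.124 to 0.152) overlapped. Rgs7bp therefore moved to the bottom of the order in ATlo cells, and in AThi cells it could not be told from Skint3.

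**Figure D3:**
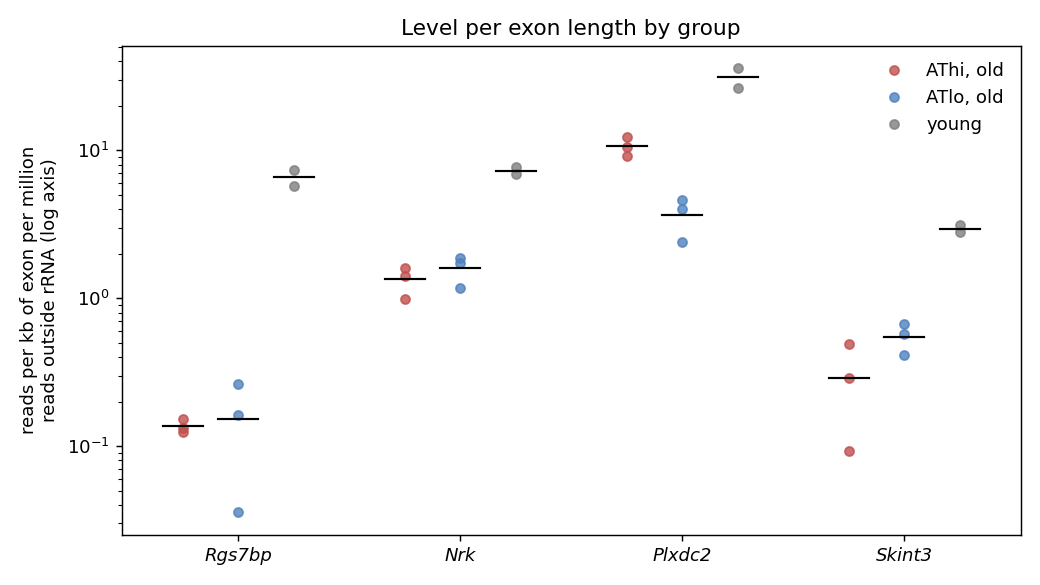
RPKM over reads outside ribosomal RNA (log axis) for the 4 genes in each library, by group, with group means. Plxdc2 is highest in all 3 groups, and Rgs7bp lies between 5.76 and 7.40 in young libraries and at or below 0.263 in old ones.

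The genes sit on different chromosomes. In GENCODE M21 on GRCm38, Rgs7bp (ENSMUSG00000021719) spans chromosome 13, 104945904 to 105054930, minus strand, with 7077 exonic bases in 6 parts. Nrk (ENSMUSG00000052854) spans chromosome X, 138914430 to 139010532, plus strand, with 9210 exonic bases in 30 parts. Plxdc2 (ENSMUSG00000026748) spans chromosome 2, 16356304 to 16755839, plus strand, with 6947 exonic bases in 14 parts. Skint3 (ENSMUSG00000070868) spans chromosome 4, 112232245 to 112300468, plus strand, with 3843 exonic bases in 10 parts. No annotated gene overlaps any of the 4. Reads that could be shared with other genes are few: 0 of 7041 transcript words of 50 bases in Plxdc2 occur in another gene, against 47 of 7011 (0.670%) in Rgs7bp, 61 of 9259 (0.659%) in Nrk and 19 of 3841 (0.495%, all shared with Skint2) in Skint3.

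The sequences just before the starts of the genes are shown because the members were all lower in old than in young HSCs, so that letters they share can be looked for. RefSeq promoters (GRCm38.p6) matched 3 of the 4 genes, Rgs7bp, Nrk and Skint3. Each line gives the 250 bases before the start, 5′ to 3′ on the strand of the gene. Capitals mark matches, on either strand, to the CCAAT box (CCAAT, read as ATTGG on the other strand) and the GC box (GGGCGG, or CCGCCC).
Rgs7bp, chr13:105054931-105055180, minus strand: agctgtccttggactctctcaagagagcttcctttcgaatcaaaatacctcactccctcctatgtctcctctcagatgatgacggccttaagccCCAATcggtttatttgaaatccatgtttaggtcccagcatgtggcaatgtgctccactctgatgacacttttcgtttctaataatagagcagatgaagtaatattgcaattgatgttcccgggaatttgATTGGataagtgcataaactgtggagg
Nrk, chrX:138914180-138914429, plus strand: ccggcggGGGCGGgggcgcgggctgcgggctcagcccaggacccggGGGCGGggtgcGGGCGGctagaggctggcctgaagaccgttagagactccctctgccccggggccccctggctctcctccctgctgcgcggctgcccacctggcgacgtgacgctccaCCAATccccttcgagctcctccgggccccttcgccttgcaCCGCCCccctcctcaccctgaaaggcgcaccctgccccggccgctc
Skint3, chr4:112231995-112232244, plus strand: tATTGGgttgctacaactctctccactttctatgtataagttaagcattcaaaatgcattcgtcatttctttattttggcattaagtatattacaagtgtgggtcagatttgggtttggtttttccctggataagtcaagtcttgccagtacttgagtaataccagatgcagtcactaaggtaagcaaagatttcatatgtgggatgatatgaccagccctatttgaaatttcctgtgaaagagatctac

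The 3 sequences had little in common. Their GC content was 43.2% in Rgs7bp, 76.4% in Nrk and 36.8% in Skint3, against a median of 52.4% over 32851 promoters; 2.82% of promoters have more GC than Nrk and 92.7% more than Skint3. They held 5, 24 and 1 CpG dinucleotides, against a median of 6. CCAAT occurred in all 3, at -156 and -27 in Rgs7bp, -86 in Nrk and -249 in Skint3, but also in 33.8% of all promoter windows of 250 bases. GGGCGG occurred in Nrk alone of these, at -243, -204, -193 and -46, and in 32.7% of all windows. None of the 3 windows held, on either strand, the letters of RUNX (TGTGGT, in 14.0% of all windows), GATA factors (AGATAA, in 9.99%), ETS (GGAAGT, in 19.7%), the E-box (CACGTG, in 6.02%), the TATA box (TATAAA, in 12.4%), CRE (TGACGTCA, in 1.55%), AP-1 (TGAGTCA, in 4.46%) or E2F (TTTGGCGC, in 0.417%). A match in these letters is a description and no evidence of binding.

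None of the few measured signalling partners of Rgs7bp passed the test, and nothing is read from this. Of 13 genes of the R7 RGS complex and G alpha i/o, 8 were in the tables, and 0 were called in any of the 3 contrasts by the authors' deposited DESeq2 test or by edgeR, with 0 at an unadjusted p below 0.05 in either. Of the 8, 1 had no adjusted p in AThi against ATlo. Over all genes DESeq2 called 7.9% in AThi against ATlo, 5.04% in AThi against young and 4.34% in ATlo against young. In the same order edgeR called 1.41%, 1.21% and 0.653%. A list this short cannot set 0 calls apart from these shares. The median log2 fold change of the list was 0.39 in AThi against ATlo, -0.02 in AThi against young and 0.07 in ATlo against young, beside 0.02, 0.00 and 0.01 over all genes. Gnb5, the G beta subunit that binds R7 proteins, averaged 278 normalized counts in AThi, 188 in ATlo and 167 in young. Rgs9bp, the retinal relative of Rgs7bp, averaged 46.4 in AThi, 112 in ATlo and 51.2 in young, and Rgs9, an R7 protein, 10.98 in AThi, 17.5 in ATlo and 38.6 in young. Rgs6, Rgs7 and Rgs11 were not analysed here. Of 15 other RGS genes 9 were in the tables, and 0 were called by either test. At an unadjusted p below 0.05, DESeq2 gave 2 in each of the 3 contrasts. At that threshold edgeR gave 1 in AThi against ATlo, 1 in AThi against young and 2 in ATlo against young. No share of all genes at an unadjusted p is given here, so nothing is read from such counts. The medians of these RGS genes were 0.12, -0.25 and 0.01 in the same order of contrasts.

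Among germinal centre kinases, the family of Nrk, and genes of the JNK cascade a few were called, in both directions. Of 22 genes of the germinal centre kinases and JNK cascade 21 were in the tables. In AThi against ATlo 3 were higher and 1 lower in the authors' deposited table, where 3.47% of all genes tested were called higher and 4.43% lower. Map3k1, a kinase that feeds JNK, had a log2 fold change of 0.61 (SE 0.14; DESeq2 adjusted p 0.00051) in the authors' deposited table. Jun had one of 0.52 (SE 0.16; DESeq2 adjusted p 0.0250), Map4k3 of 0.45 (SE 0.15; DESeq2 adjusted p 0.0295) and Tnik, a close relative of Nrk, of -0.49 (SE 0.14; DESeq2 adjusted p 0.0131) in the authors' deposited table. Map3k1 was called in 8 of 8 refits that left out 1 library, and Tnik, Jun and Map4k3 in 5, 4 and 1 of 8. The list's median log2 fold change was 0.18 in AThi against ATlo, 0.03 in AThi against young and -0.08 in ATlo against young.

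Against young, few genes of the list were called. AThi had Map3k5 higher (log2 fold change 0.58, SE 0.18; DESeq2 adjusted p 0.0305) and 0 genes lower in the authors' deposited table, where 3.13% of all genes were called higher. At an unadjusted p below 0.05 that contrast had 5 genes of the list by DESeq2 and 5 by edgeR. ATlo had Mink1 (0.66, SE 0.20; DESeq2 adjusted p 0.0251) and Map3k5 (0.58, SE 0.18; adjusted p 0.0374) higher in the authors' deposited table, where 2.37% of all genes were called higher. ATlo also had Map4k3 (-0.57, SE 0.16; DESeq2 adjusted p 0.0168) and Map3k1 (-0.58, SE 0.15; adjusted p 0.00733) lower in the authors' deposited table, where 1.98% of all genes were called lower. With 1 library left out, the ATlo calls of Map3k1, Map4k3, Mink1 and Map3k5 held in 5, 4, 3 and 0 of 8 refits, and the AThi call of Map3k5 in 1 of 8. Map4k4 was not called and averaged 2186 in AThi, 1925 in ATlo and 2211 in young. The edgeR test called 0 genes of this list in AThi against ATlo, AThi against young and ATlo against young, where it called 1.41%, 1.21% and 0.653% of all genes. At an unadjusted p below 0.05 it had 5, 5 and 6. Counts at an unadjusted p have no share of all genes beside them, so nothing is read from them.

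Among relatives of the Plxdc2 product, the plexins, 1 gene rose in both old fractions. Of 15 genes of the PLXDC family, plexins and neuropilins 11 were in the tables, and Plxdc1 was not analysed here. Their median log2 fold change was 0.31 in AThi against ATlo, 0.11 in AThi against young and -0.19 in ATlo against young. In AThi against young 2 of the 11 were called higher in the authors' deposited table, where 3.13% of all genes tested were. In ATlo against young 1 was called higher and 1 lower, where 2.37% and 1.98% of all genes were. Plxnb2, a semaphorin receptor, was at 4078, 3618 and 3413 normalized counts in AThi O10, O11 and O12, at 3017, 3289 and 2650 in ATlo, and at 1549 and 1847 in young D11 and D12. Both old fractions lay above both young libraries. Plxnb2 had log2 fold changes of 1.12 (SE 0.17; DESeq2 adjusted p 2.9e-09) in AThi and 0.81 (SE 0.17; adjusted p 0.00011) in ATlo against young in the authors' deposited table. In edgeR its adjusted p was 0.0102 in AThi and 0.0635 in ATlo, and the ATlo call was lost without young D11 (DESeq2 adjusted p 0.0523). Plxnc1 was higher in AThi against young (log2 fold change 0.43, SE 0.14; DESeq2 adjusted p 0.0400) in the authors' deposited table, and that call was kept in 3 of 8 refits that left out 1 library.

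Plxna2, a further plexin, was the list's 1 call in the direction of Plxdc2. It was at 70.3, 24.2 and 114 normalized counts in AThi O10, O11 and O12, at 26.7, 4.76 and 99.5 in ATlo O10, O11 and O12, and at 416 and 418 in young D11 and D12. Its log2 fold change was -3.25 (SE 0.93; DESeq2 adjusted p 0.0176) in ATlo and -2.58 (DESeq2 adjusted p 0.0881) in AThi against young in the authors' deposited table. The ATlo call was absent in edgeR (adjusted p 0.245) and lost without ATlo O10, young D11 or young D12. In AThi against ATlo 0 of the 11 were called by the authors' deposited DESeq2 test or by edgeR, where 7.9% and 1.41% of all genes were. At an unadjusted p below 0.05 there were 4 and 3, for which no share of all genes is given. Serpinf1, the gene of PEDF, averaged 3182 in AThi, 3067 in ATlo and 3229 in young and was not called. Of the 21 SKINT and butyrophilin genes Btnl9 alone was in the tables, with log2 fold changes of 0.61 in AThi against ATlo, 0.82 in AThi against young and 0.20 in ATlo against young in the authors' deposited table, and it was not called.

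Most genes next to the members on the chromosome were not called in any contrast. The 10 nearest tested genes on each side gave 20 neighbours a member and 80 in all, the nearest 67.5 kb away (Nrk) and the farthest 3437 kb away (Skint3). In AThi against young 3 of the 80 were called higher and 2 lower in the authors' deposited table, where 5.04% of all genes were called. In ATlo against young 3 were higher and 3 lower, where 4.34% of all genes were called, and in AThi against ATlo 4 were higher and 4 lower, where 7.9% were. The median log2 fold change of the 80 was -0.09 in AThi against young, -0.05 in ATlo against young and 0.14 in AThi against ATlo, beside 0.00, 0.01 and 0.02 over all genes. The edgeR test called 2 higher and 0 lower in AThi against young, where it called 1.21% of all genes (0.844% higher and 0.362% lower). It called 1 higher and 0 lower in ATlo against young, where it called 0.653% of all genes (0.467% higher and 0.186% lower). In AThi against ATlo it called 0, where it called 1.41% of all genes. There 12 of the 80 had an unadjusted edgeR p below 0.05, a count with no share of all genes beside it.

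The nearest neighbour of Nrk moved in the opposite direction. Il1rapl2, an interleukin 1 receptor-like gene that ends 67.5 kb before Nrk starts (chromosome X, 137570608 to 138846946, GRCm38), was at 777, 688 and 530 normalized counts in AThi O10, O11 and O12, at 671, 437 and 316 in ATlo O10, O11 and O12, and at 38.4 and 76.0 in young D11 and D12. Every old library lay above both young ones. Its log2 fold change against young was 3.54 (SE 0.43; DESeq2 adjusted p 3.2e-14) in AThi and 3.05 (SE 0.43; adjusted p 2.5e-10) in ATlo in the authors' deposited table. The edgeR adjusted p were 0.00822 and 0.0229, and both calls held in 8 of 8 refits that left out 1 library. In AThi against ATlo it was not called (DESeq2 log2 fold change 0.49, adjusted p 0.509 in the authors' deposited table).

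Rnf128, an E3 ubiquitin ligase also beside Nrk, was at 593, 22.02 and 51.3 normalized counts in AThi O10, O11 and O12, at 28.3, 74.6 and 82.4 in ATlo O10, O11 and O12, and at 6.23 and 0 in young D11 and D12. It was called higher in AThi and in ATlo against young in the authors' deposited table (DESeq2 adjusted p 0.000255 and 0.0339) but not in edgeR (0.193 and 0.365), and the AThi call was lost without AThi O10. The ATlo call was lost without ATlo O11, ATlo O12 or young D12. Cyp4b1, beside Skint3, was at 280, 302 and 197 in AThi O10, O11 and O12, at 91.1, 61.9 and 73.9 in ATlo O10, O11 and O12, and at 44.7 and 31.7 in young D11 and D12. The 3 AThi libraries were above the other 5, and its log2 fold change in AThi against young was 2.76 (SE 0.48; DESeq2 adjusted p 8.6e-07) in the authors' deposited table, with an edgeR adjusted p of 0.0263. Those that fell were Cenpk and Ppwd1 near Rgs7bp in AThi (log2 fold changes -1.58 and -0.68; DESeq2 adjusted p 0.00795 and 0.0273) and Tsc22d3 near Nrk, Mllt10 and Gm13333 near Plxdc2 in ATlo (-1.23, -0.48 and -3.35; adjusted p 0.0127, 0.00392 and 0.00745) in the authors' deposited table. Cdkn2c near Skint3, an inhibitor of cyclin-dependent kinases, was higher in ATlo (1.44, DESeq2 adjusted p 0.00399) in the authors' deposited table. The edgeR test called none of these 6.

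**Figure D4:**
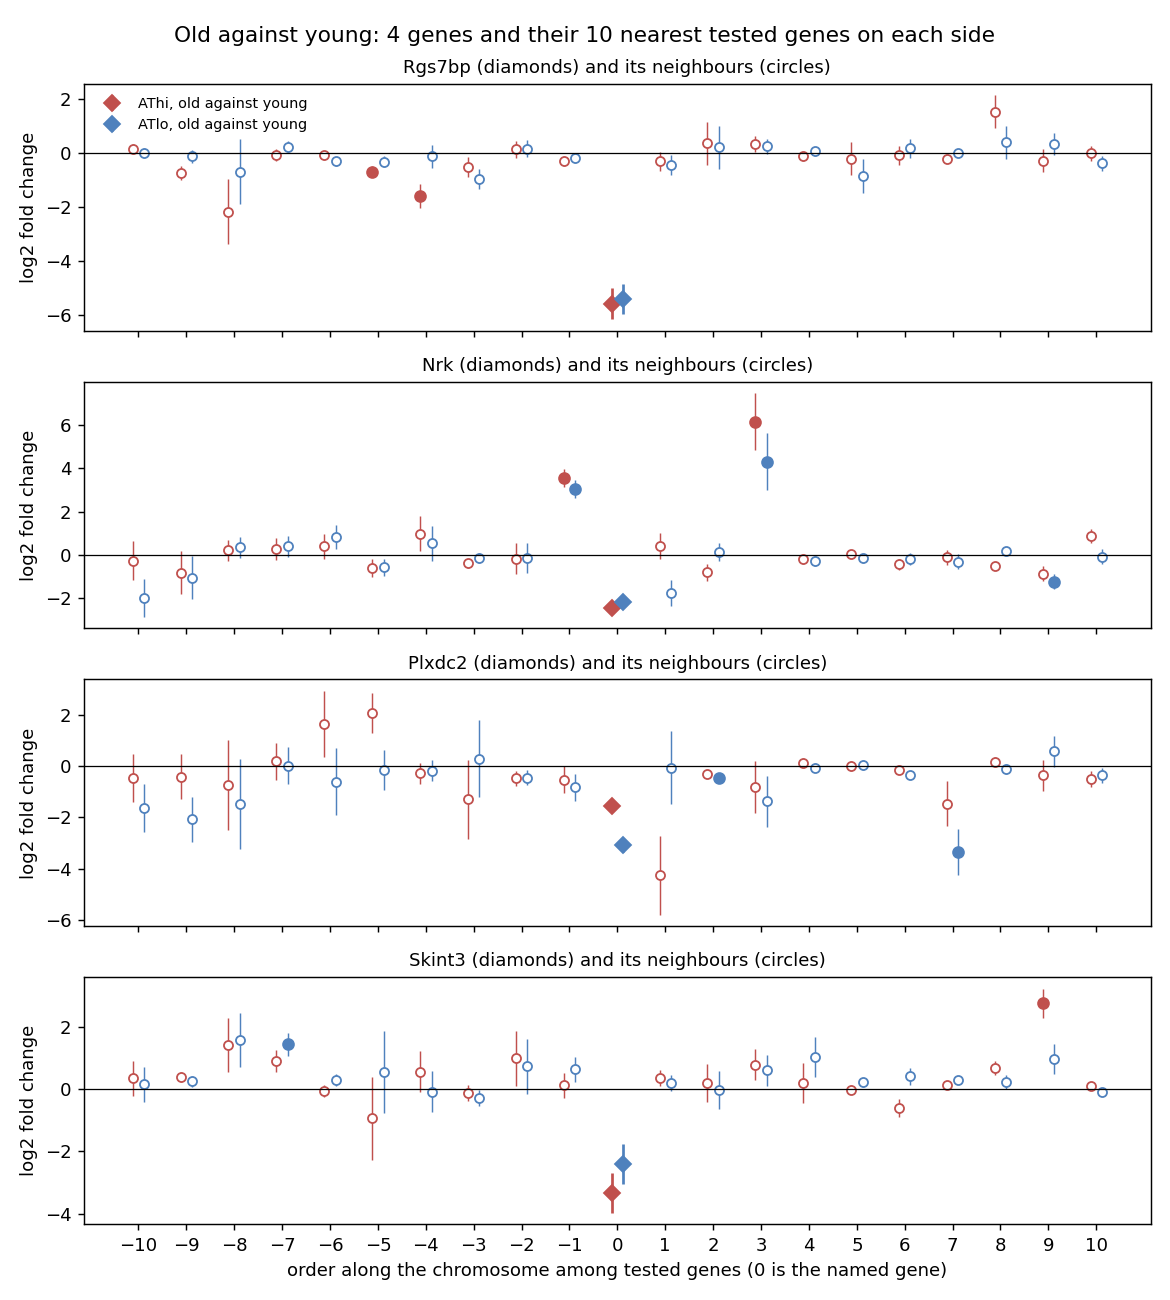
Log2 fold change (with SE bars) against young in AThi and in ATlo for each member and its 20 nearest tested genes, in chromosome order; diamonds are the named gene, filled circles are called at an adjusted p below 0.05 and open circles are not. Around each member most neighbours scatter about 0, and Il1rapl2 beside Nrk stands at 3.54 in AThi and 3.05 in ATlo.

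The genes whose pattern over the 8 libraries was most like that of each member were found by Pearson correlation of log2(normalized count + 1). They were sought among 12662 genes with a mean of at least 20, leaving out predicted, clone, Riken, mitochondrial and pseudogene names. The likeness is carried by the distance between young and old, and libraries share depth and sort, so it is given as a description. For Rgs7bp they were Cep135 (r 0.951), Tet1 (0.941), Zc3hav1 (0.941), Spg20 (0.935) and Ctla2b (0.933). For Nrk they were Ctdspl2 (r 0.964), Lipo3 (0.957), Il12rb2 (0.954), Rcsd1 (0.952) and Serpini1 (0.9498). For Plxdc2, the 1 member called between AThi and ATlo, they were Stard5 (r 0.969), Hipk3 (0.966), Rere (0.962), Snhg1 (0.961) and P2ry14 (0.956). For Skint3 they were Rmc1 (r 0.971), Il12rb2 (0.963), Unc119b (0.951), Kcnk12 (0.948) and Ncoa4 (0.944).

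The sizes of the steps in these genes were mostly smaller than in the members. Il12rb2, a subunit of the interleukin 12 receptor and the 1 gene in more than 1 of these lists, averaged 331 normalized counts in AThi, 426 in ATlo and 1251 in young. Kcnk12, a potassium channel gene, averaged 16.2 in AThi, 22.5 in ATlo and 89.2 in young. P2ry14, a receptor for nucleotide sugars, averaged 1161 in AThi, 767 in ATlo and 1576 in young, the same order as Plxdc2. Tet1, an enzyme that oxidises methylcytosine, averaged 5044 in AThi, 4799 in ATlo and 7398 in young. Between pairs of members the correlation was 0.533 to 0.914 over all 8 libraries, which the distance between young and old carries, and -0.508 (Plxdc2 and Skint3) to 0.439 (Nrk and Skint3) over the 6 old libraries, which pool both fractions and are too few to set a value apart from 0.

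A table of 726 upstream regulators, which names their targets in the AThi against ATlo contrast, was also deposited by the authors. Plxdc2 stood among the targets of 6 of them, 5 of which had an activation score, of -1.941 to 1.383, with a p-value of overlap of 7.02e-05 to 0.0766 for the 6 in the authors' deposited table. Rgs7bp, Nrk and Skint3 stood among the targets of 0, and they were not called in that contrast. No count for other genes stands beside these, so nothing is read from the difference between members.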

How the data were processed

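Bulk RNA-seq of 8 HSC libraries was analysed from the tables of 3 contrasts. The submitters' processing notes name STAR, featureCounts, DESeq2, FastQC and MultiQC and the build GRCm38; settings and strand are not given in sources used here. Each table the authors deposited gives a log2 fold change with its SE, the Wald score, p-values before and after adjustment, and the normalized signal of each library. A deposited table of regulators gives an activation score and a p-value of overlap.

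The main test is the authors' deposited DESeq2 Wald test, with 1 fit of 8 libraries, with calls at adjusted p below 0.05. edgeR had been planned for raw counts, but contrasts were found, so the authors' own test stands. The deposited signal, divided by its step of 1 read, came out whole (to 0.01 of a read) for 100% of values. On these, edgeR 4.0.16 (quasi-likelihood) called 280 genes, 60 higher and 220 lower, in AThi against ATlo, where the deposited table has 1414; DESeq2 1.42.0 was refitted, in R 4.3.3. Both were tested on simulated data. The rest used Python 3.11.15 with scipy 1.17.1, pandas 2.3.3, numpy 2.4.6 and matplotlib 3.10.9.

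Depth was 33960216 to 61341946 reads, of which 27.1% to 36.1% were ribosomal. Reads carry no molecular identifiers, so intervals cover counting error only, and the p-values measure the spread between these samples. Columns carry the group and a tag (O10 to O12, D11 and D12), which differ from the labels' replicate numbers, so columns were matched to groups only. The labels' protocols call the AThi and ATlo samples paired. Deviations of libraries with 1 tag had correlations of 0.209, 0.164 and 0.373 over 13611 genes, against -0.232 to 0.0301 for different tags. Deviations within a group of 3 libraries are tied to each other, so the values for different tags are no independent baseline. The highest value, 0.373, was for O12, the old tag with the most Ighm and Hbb-bs. Because the labels call the samples paired, AThi against ATlo was also fitted with the tag as a block. That fit is given for the members and the counts of calls over all genes. Calls among related lists and chromosomal neighbours are given without the block. RNA was collected on 2 sort days per the labels' protocols, and the day of each library is unknown here.

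Members and gene lists were chosen with earlier results of these data known. Named are all members, called genes of the related lists (up to 4 per contrast) and called chromosomal neighbours. Also named are close family members whatever their p, the 5 genes most alike in pattern and genes of the sex check. The files give no coordinates, so those of GENCODE M21 (GRCm38) were used. Alternatives were other tests, filters, normalizations, pseudocounts, windows and leaving out each library.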

Additional observations from a re-analysis of the deposited data

Results flagged for a closer look

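The effects of AThi and ATlo against young differed for 1 of the 4 genes. The difference between these 2 effects equals the AThi against ATlo contrast, which the authors' deposited DESeq2 Wald test covers. For Plxdc2 it was 1.53 on the log2 scale, and this was the 1 difference of those given here that edgeR also called.

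Among the germinal centre kinases and JNK cascade genes the same test gave differences of -0.49 for Tnik and 0.45 for Map4k3 on the log2 scale. It gave 0.61 for Map3k1 and 0.52 for Jun. Among chromosomal neighbours it gave -1.47 for Cenpk near Rgs7bp. Near Nrk it gave 2.16 for Pwwp3b, -0.70 for Prps1 and 0.95 for Mid2. Near Plxdc2 it gave 2.23 for Gm37891 and -4.21 for A930004D18Rik. Near Skint3 it gave -1.02 for Stil, a gene of centriole assembly, and 1.78 for Cyp4b1. A930004D18Rik was at 5.85, 1.10 and 0 normalized counts in AThi O10, O11 and O12 against 96.6, 17.5 and 7.77 in ATlo O10, O11 and O12, and its call held in 2 of 8 refits that left out 1 library. Prps1, Stil, Cyp4b1 and Map3k1 were called in 8 of 8 such refits, Cenpk and Pwwp3b in 7, Mid2 and Tnik in 5, Gm37891 and Jun in 4, and Map4k3 in 1. Groups of 2 and 3 libraries are too small to look for single outlying libraries.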

How the results depend on the processing

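Plxdc2 in AThi against ATlo kept its direction and its call under each alternative run; Nrk and Skint3 kept their direction and were called in none. Rgs7bp changed sign with the replicate block (log2 fold change 0.17 in DESeq2, adjusted p 0.968; 0.15 in edgeR, 0.955) and without ATlo O10 (0.46, DESeq2 adjusted p 0.743); the cause was not tested, and its old libraries hold 10 to 74 reads. Leaving out 1 library gave log2 fold changes of -0.64 to 0.46 for Rgs7bp, -0.44 to -0.09 for Nrk, 1.31 to 1.72 for Plxdc2 and -1.55 to -0.49 for Skint3, and log2 ratios of AThi over young of -5.75 to -5.39 and of ATlo over young of -6.04 (without ATlo O10) to -4.94 for Rgs7bp. Counts of calls in AThi against ATlo (621 higher and 793 lower in the authors' deposited table) were 60 and 220 in edgeR with or without a filter, 60 and 226 with the size factors of DESeq2, and 83 and 228 with the replicate block in edgeR; DESeq2 with the replicate block called 939 higher. Leaving out 1 library in DESeq2 gave 357 (without AThi O10) to 705 higher and 486 (without ATlo O11) to 852 lower. The block changed no call of a member. In edgeR, genes of the related lists were called 0 higher and 0 lower in AThi against ATlo. It called 1 higher in AThi against young, and 0 higher and 0 lower in ATlo against young. The authors' deposited table had 3 higher and 1 lower, 3 and 0, and 3 and 3 in these contrasts. DESeq2 refits that left out 1 library gave 1 to 4 higher and 0 to 2 lower in AThi against ATlo. For AThi against young they gave 1 to 3 and 0 to 2, and for ATlo against young 0 to 2 and 1 to 4. Of the neighbours, edgeR called 0 higher and 0 lower in AThi against ATlo. It called 0 lower in AThi against young, and 1 higher and 0 lower in ATlo against young. For these contrasts the authors' deposited table had 4 higher and 4 lower, 3 and 2, and 3 and 3. With 1 library left out, DESeq2 gave 2 to 7 higher and 3 to 5 lower in AThi against ATlo. For AThi against young it gave 2 to 5 and 1 to 3, and for ATlo against young 2 to 3 and 0 to 4. With 5 neighbours on each side, the authors' deposited table had 2 higher and 2 lower in AThi against ATlo and 1 lower in ATlo against young. With a pseudocount of 10, 1 of the 5 genes most like Rgs7bp stayed among its 5. Over these results, 212 values were labelled the same, 53 moved and 3 changed sign, the last all for Rgs7bp in AThi against ATlo. The bounds between same and moved are not given here, so nothing is read from those counts.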
